A study of Mus musculus with 6 samples.

Results

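The dual specificity phosphatases studied here are the products of 10 genes, Dusp1, Dusp2, Dusp4, Dusp5, Dusp6, Dusp7, Dusp10, Dusp11, Dusp16 and Dusp22, taken by their symbol from the 26771 genes that the tables list. All 10 were listed in every library. The cells were γδ T cells from the spleens of C57BL/6 mice that lack the T cell receptor β chain (TCRβ-/-), a genotype shared by both groups. The labels call both groups γδT17 cells, the subset that secretes interleukin-17. Initial cells were sorted out of the spleen without culture, and the sorting markers are not given. Induced cells had been cultured for 8 days by a protocol that uses the cytokines IL-1β and IL-23 and were then purified with the Pan T Cell Isolation kit II, and by the labels most of them expressed IL-17A. Each group held 3 libraries, from mice named A, B and C in both groups. Age is not given for the mice, and the method of purification differed between the groups, so culture and handling cannot be told apart.

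Mitogen-activated protein (MAP) kinases, namely ERK, JNK and p38, carry signals from antigen and cytokine receptors to the nucleus and are switched on by phosphate groups on a threonine and a tyrosine of the same loop. MAP kinase phosphatases remove both phosphates and so end the signal, and several of their genes are themselves switched on within minutes of MAP kinase activity, which makes them feedback inhibitors. Dusp1, Dusp2, Dusp4 and Dusp5 encode inducible phosphatases of the nucleus, Dusp6 and Dusp7 cytoplasmic phosphatases with a preference for ERK, and Dusp10 and Dusp16 phosphatases that act on JNK and p38. Dusp11 and Dusp22 belong to the atypical members, which lack the kinase-binding domain. Dusp11 acts on the triphosphate end of RNA, and Dusp22 removes an activating phosphate from the T cell kinase Lck.

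The part of the coding sequence that all 10 genes share encodes the catalytic loop, in which a cysteine attacks the phosphate and an arginine holds it. The 8 codons of this loop (24 bases) are shown for each gene to compare the members at their active site. They were read from the GENCODE M21 transcripts (GRCm38) by translating the principal coding sequence and searching for histidine, cysteine, any 5 residues and arginine, a pattern found once in each gene. Capitals mark the cysteine codon and the arginine codon.
Dusp1: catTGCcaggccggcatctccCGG
Dusp2: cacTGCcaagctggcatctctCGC
Dusp4: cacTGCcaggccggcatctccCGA
Dusp5: cacTGCgaagctggggtttccCGG
Dusp6: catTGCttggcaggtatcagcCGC
Dusp7: cacTGCctagcaggcatcagcCGT
Dusp10: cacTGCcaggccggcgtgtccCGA
Dusp16: cacTGCttagctgggatctctCGC
Dusp11: cacTGCacccatggcttaaatAGG
Dusp22: catTGCctggctggggtctccAGG
The loops of Dusp1 and Dusp4, and those of Dusp4 and Dusp10, were identical at 22 of 24 bases, the closest pairs. The least alike were Dusp6 and Dusp11, with 10 identical bases. Dusp11, whose enzyme acts on RNA, had 11 identical bases with each of Dusp1, Dusp4 and Dusp10. It had 12 with each of Dusp5, Dusp7, Dusp16 and Dusp22 and 13 with Dusp2, as many as Dusp5 and Dusp6 shared.

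Values were FPKM, a fragment count scaled by transcript length and library size, as the authors deposited them, so levels can be set side by side between genes. Depth was estimated from the step between low values at about 19100000 to 23000000 fragments per library. The libraries listed 20419 to 21844 genes in the Initial and 16550 to 17033 genes in the Induced group, and correlations of log2(FPKM + 1) across genes, which are not independent replicates, were 0.9862 to 0.9955 within a group and 0.7858 to 0.8265 between groups. Trdc, the constant region of the δ chain, stood at 320 to 335 FPKM in Initial and 299 to 357 FPKM in Induced libraries, while the γδT17 marker gene Il23r stood at 3.46 to 5.49 and 21.7 to 30.9 FPKM. Il17a itself overlapped between the groups, at 7.34 to 15.3 FPKM in Initial and 7.64 to 22.5 FPKM in Induced libraries. Means are given with the SD over 3 libraries. Fold changes of the test, Induced minus Initial, are differences of log2(FPKM + 1), given with a standard error (SE) and a limma p-value adjusted by Benjamini-Hochberg over the 11265 genes tested, and a gene is said to have risen or fallen at an adjusted p under 0.05. In bulk RNA, fewer cells of a type and less RNA per cell cannot be told apart. Beyond the mouse letter, the labels do not say how the libraries of a group differ, so p-values measure the spread between these 3 libraries per group. The main test does not use the pairing by mouse letter, and a block for the mouse was tried as an alternative.

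Of the 10 phosphatase genes, 8 fell after culture and 2 rose. Dusp1, Dusp2, Dusp4, Dusp5, Dusp6, Dusp10, Dusp11 and Dusp16 fell, and Dusp7 and Dusp22 rose. Over all genes tested, 33.1% fell and 37.3% rose. In 8 genes every Induced library was below every Initial library, as in 35.4% of all genes tested, and in 2 genes every Induced library was above, as in 40.0% of all genes. A fall of at least 2-fold on the test's scale was called for 6 of the 10 genes and for 13.2% of all genes. The median log2 fold change was -2.56 over the 10 genes and 0.03 over all genes tested. The 10 genes were chosen with earlier results of these data known, so the contrast with all genes is a description and not an independent test. Of 13 other dual specificity phosphatase genes tested, 5 fell and 5 rose, with a median of 0.02. All 10 passed the filter on low values, Dusp4 only through the Initial libraries.

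**Figure D1:**
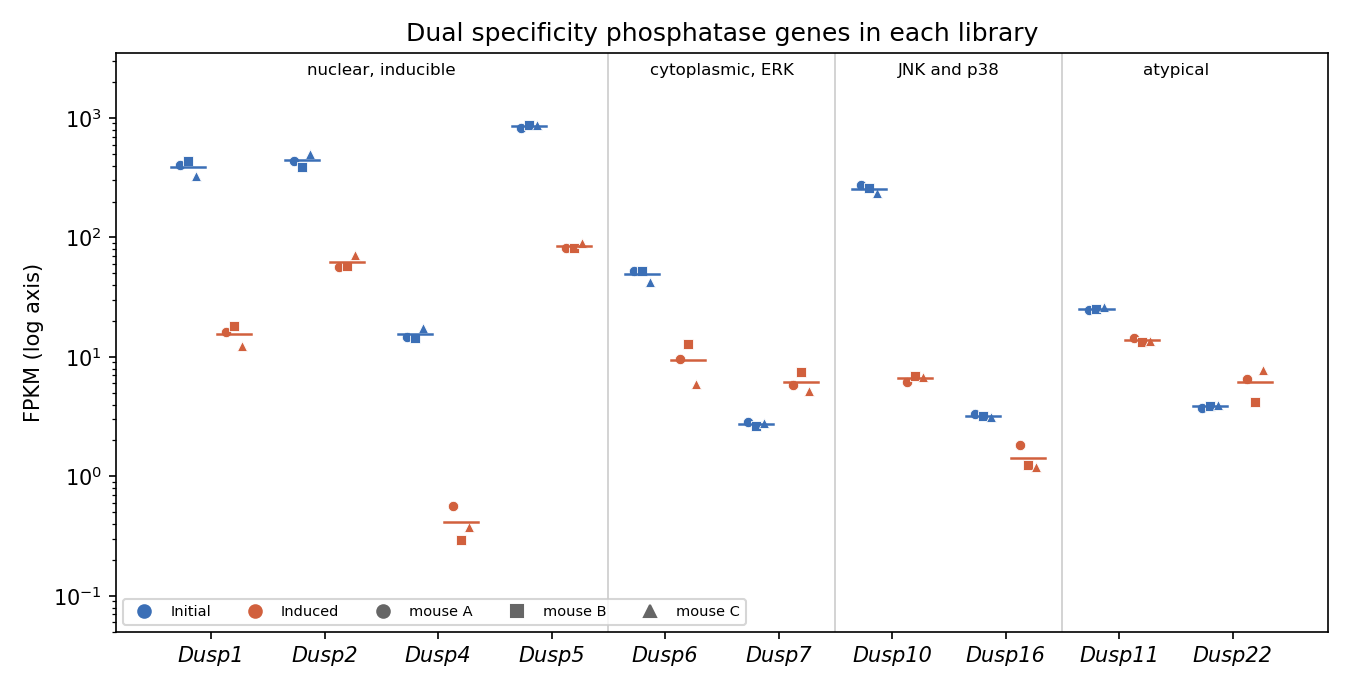
FPKM (log axis) of each of the 10 genes in each library, with Initial libraries in blue, Induced libraries in orange, a symbol for each mouse and a line at the group mean. The groups overlap in none of the 10 genes, and the spread within a group is small beside the distance between groups for Dusp1, Dusp2, Dusp4, Dusp5 and Dusp10.

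Dusp5, whose product binds ERK and dephosphorylates it in the nucleus, was the most abundant of the 10 in both groups. It (ENSMUSG00000034765, chromosome 19, 53529109 to 53542431, plus strand, GRCm38) had 819, 882 and 875 FPKM in Initial libraries A, B and C and 81.9, 82.4 and 90.6 FPKM in the same order in Induced libraries. Positions here and below are those of the principal transcript of each gene. The Initial libraries all lay near 10 times the Induced ones, and the spread within each group was the narrowest in proportion among the nuclear phosphatases (coefficient of variation 4.04% and 5.71%). Dusp5 went from 858 ± 34.7 to 85.0 ± 4.86 FPKM (log2 fold change -3.32, SE 0.07, adjusted p = 4e-08). By level it ranked 41 among the 11265 genes tested in Initial cells and 1032 in Induced cells.

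Dusp2, known as PAC-1 and found mainly in blood cells, where activation induces it, was second in both groups. Its gene (ENSMUSG00000027368, chromosome 2, 127336159 to 127338376, plus strand) gave 436, 389 and 500 FPKM in Initial libraries A, B and C and 56.4, 58.1 and 71.5 FPKM in the Induced ones. All Induced libraries were lower, and library C was the highest of its group in both. Dusp2 fell from 442 ± 56.0 to 62.0 ± 8.30 FPKM (log2 fold change -2.81, SE 0.12, adjusted p = 6.7e-07), the smallest fall among the 4 nuclear phosphatases.

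Dusp1, also called MKP-1, acts mainly on p38 and JNK in the nucleus and is an immediate early gene of stress and growth factor signals. It (ENSMUSG00000024190, chromosome 17, 26505590 to 26508519, minus strand) had 405, 440 and 326 FPKM in Initial and 16.2, 18.1 and 12.3 FPKM in the same order in Induced libraries. Library C was the lowest of its group both before and after culture, and the groups lay far apart. Dusp1 fell from 390 ± 58.4 to 15.5 ± 2.99 FPKM (log2 fold change -4.57, SE 0.16, adjusted p = 3.1e-07). The difference within each mouse lay between -4.63 and -4.53. In Initial cells its range overlapped that of Dusp2, while in Induced cells it was below Dusp2 in every library.

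Dusp4, or MKP-2, a nuclear phosphatase of ERK and JNK, was the least abundant of the nuclear group. It (ENSMUSG00000031530, chromosome 8, 34807297 to 34819894, plus strand) stood at 14.8, 14.3 and 17.5 FPKM in Initial libraries A, B and C and at 0.569, 0.295 and 0.379 FPKM in the Induced ones, where it was the lowest of the 10 genes. Those Induced values rest on roughly 34, 17 and 24 fragments, against 750 to 1000 in the Initial libraries. Dusp4 fell from 15.5 ± 1.75 to 0.414 ± 0.140 FPKM, 37.5-fold by the ratio of the means, while the log2 fold change of -3.55 (SE 0.12, adjusted p = 2.2e-07) is held down by the added 1 FPKM and was -4.96 with 0.1 and -1.92 with 5 added.

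Together the 4 nuclear phosphatases summed to 1674 to 1725 FPKM in Initial and 155 to 175 FPKM in Induced libraries.

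Dusp10, also called MKP-5, which dephosphorylates JNK and p38, had the largest fall of the 10. It (ENSMUSG00000039384, chromosome 1, 184034381 to 184075636, plus strand) had 273, 260 and 238 FPKM in Initial libraries A, B and C and 6.23, 6.93 and 6.76 FPKM in the same order in Induced libraries. Both groups were tight, and the Induced libraries held a small part of the Initial level. Dusp10 fell from 257 ± 17.8 to 6.64 ± 0.363 FPKM (log2 fold change -5.08, SE 0.08, adjusted p = 1.2e-08). It ranked 255 by level in Initial cells and 7299 in Induced cells, and by log2 fold change it ranked 38th from the largest fall among the 11265 genes tested. Dusp1 stood 70th, Dusp4 173rd, Dusp5 213th, Dusp2 317th and Dusp6 465th from the largest fall.

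Dusp16, or MKP-7, a phosphatase that favours JNK, changed much less. It (ENSMUSG00000030203, chromosome 6, 134715473 to 134792625, minus strand) had 3.34, 3.21 and 3.13 FPKM in Initial and 1.82, 1.25 and 1.1999 FPKM in the same order in Induced libraries. Induced library A was the highest of its group and still below every Initial library. Dusp16 fell from 3.23 ± 0.105 to 1.42 ± 0.343 FPKM (log2 fold change -0.81, SE 0.13, adjusted p = 0.00062). The call was lost after scaling to the T cell identity genes (log2 fold change -0.12, adjusted p = 0.53).

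**Figure D2:**
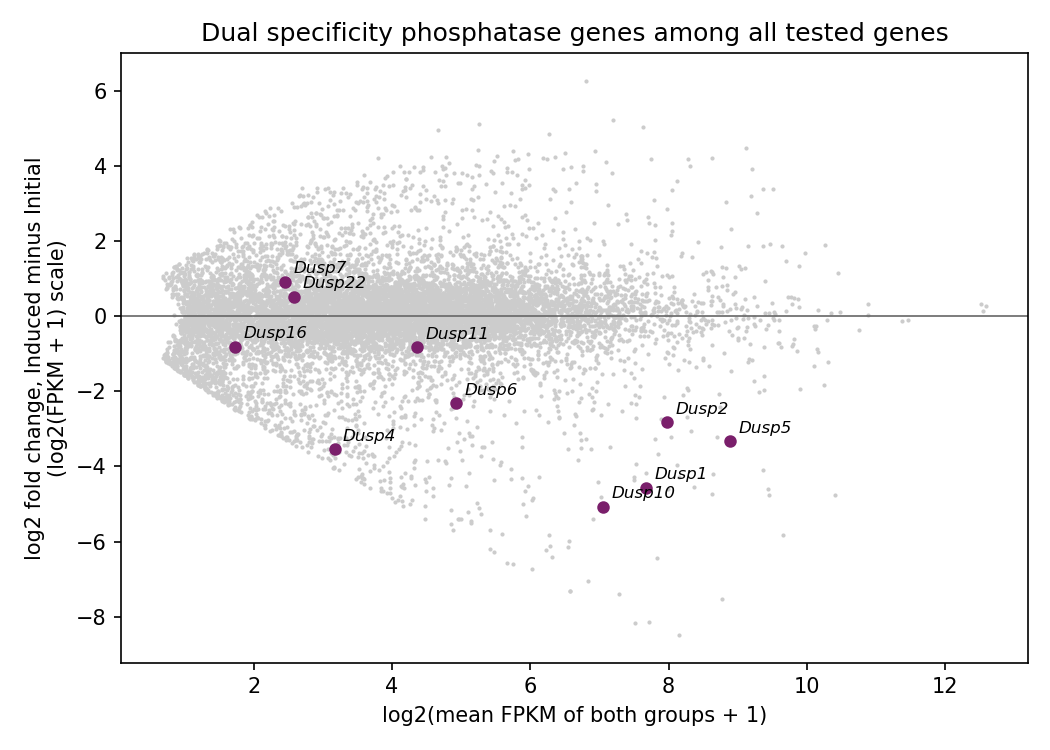
Log2 fold change (Induced minus Initial, log2(FPKM + 1) scale) against the log2 of the mean FPKM of both groups plus 1 for the 11265 genes tested (grey), with the 10 phosphatase genes in purple. Dusp1, Dusp2, Dusp5 and Dusp10 lie at the lower right, among abundant genes with large falls, and Dusp7 and Dusp22 lie above 0.

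The cytoplasmic ERK phosphatases went in opposite directions. Dusp6, or MKP-3, a feedback gene of the ERK pathway, had 52.2, 52.7 and 42.4 FPKM in Initial and 9.64, 12.8 and 5.93 FPKM in the same order in Induced libraries (ENSMUSG00000019960, chromosome 10, 99263231 to 99267488, plus strand). All Induced libraries were lower, and library C was the lowest of its group in both. Dusp6 fell from 49.1 ± 5.80 to 9.47 ± 3.45 FPKM (log2 fold change -2.31, SE 0.24, adjusted p = 0.00013), with the widest spread among the Induced levels of the 10 genes (coefficient of variation 36.5%).

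Dusp7, a close relative with the same substrate preference, was the lowest of the 10 in Initial cells. Its gene (ENSMUSG00000053716, chromosome 9, 106368632 to 106375724, plus strand) gave 2.86, 2.62 and 2.81 FPKM in Initial libraries A, B and C and 5.82, 7.48 and 5.21 FPKM in the Induced ones, all higher. Dusp7 rose from 2.76 ± 0.124 to 6.17 ± 1.17 FPKM (log2 fold change 0.92, SE 0.13, adjusted p = 0.00038). In Initial libraries Dusp6 was well above Dusp7. It stayed above Dusp7 in Induced libraries, at 9.64 and 5.82 FPKM in A, 12.8 and 7.48 in B and 5.93 and 5.21 in C.

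The atypical members also diverged. Dusp11 (ENSMUSG00000030002, chromosome 6, 85942268 to 85961667, minus strand) had 24.8, 25.2 and 26.0 FPKM in Initial and 14.5, 13.4 and 13.7 FPKM in the same order in Induced libraries, tight in both groups and lower after culture. It fell from 25.3 ± 0.605 to 13.9 ± 0.570 FPKM (log2 fold change -0.82, SE 0.07, adjusted p = 1.6e-05). Scaling to the T cell identity genes turned its direction, with a log2 fold change of 0.14 that did not pass (adjusted p = 0.429).

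Dusp22 (ENSMUSG00000069255, chromosome 13, 30660101 to 30711231, plus strand) had 3.71, 3.87 and 4.00 FPKM in Initial libraries A, B and C. The Induced libraries had 6.53, 4.17 and 7.72 FPKM, so that library B lay just above the Initial range and A and C well above it. Dusp22 rose from 3.86 ± 0.142 to 6.14 ± 1.81 FPKM (log2 fold change 0.52, SE 0.18, adjusted p = 0.0338, 95% interval 0.10 to 0.95). This call did not hold when Initial library A was left out (adjusted p = 0.0895), nor without Initial B (0.0811) or C (0.0666), Induced A (0.101) or C (0.0838), nor with no filter on low values (0.077). Without Induced library B the log2 fold change was 0.74 (adjusted p = 0.0014).

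**Figure D3:**
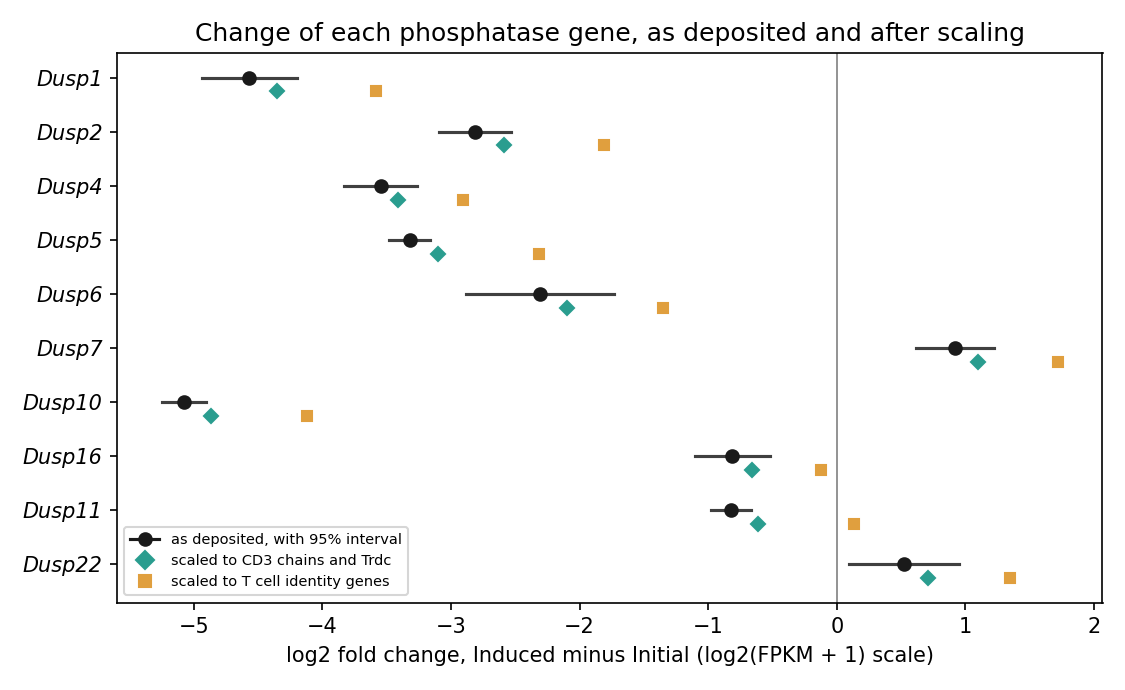
Log2 fold change of each gene with its 95% interval (black), and the log2 fold change after scaling to the CD3 chains and Trdc (green) or to the T cell identity genes (yellow). Both scalings move every gene to the right, and Dusp11 is the gene that crosses 0.

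The scaling of the libraries bears on the small changes. Of the 20 T cell identity genes 12 fell, so scaling to them raises all other genes by construction, and it moved the median log2 fold change of all tested genes from 0.03 to 0.93. Scaling to Trdc and the CD3 chains moved that median to 0.23. The share of called genes that rose was 52.9% as deposited, 66.8% with the CD3 chains and Trdc and 87.1% with the T cell identity genes. Under the latter the log2 fold changes of Dusp10, Dusp1, Dusp4, Dusp5, Dusp2 and Dusp6 were between -4.12 and -1.35 and all passed, against the shifted median of 0.93.

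The summed FPKM of the 10 genes fell from 2047 ± 22.04 in Initial to 207 ± 7.98 in Induced libraries, a ratio of 9.91. The make-up of the sum changed unevenly. Dusp5 held 41.9% ± 1.48 of it in Initial and 41.1% ± 0.935 in Induced libraries, a difference within the spread between libraries. Dusp1 went from 16.0 to 21.2% of the sum in Initial libraries to 5.70 to 8.85% in Induced libraries, and Dusp10 from 11.7 to 13.4% to 3.12 to 3.38%. Dusp2 went from 18.8 to 24.6% to 28.2 to 33.2%. Dusp11, which is not a MAP kinase phosphatase, went from 1.24% ± 0.034 to 6.72% ± 0.479. The JNK and p38 phosphatases together held 12.7% ± 0.874 and 3.91% ± 0.182.

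**Figure D4:**
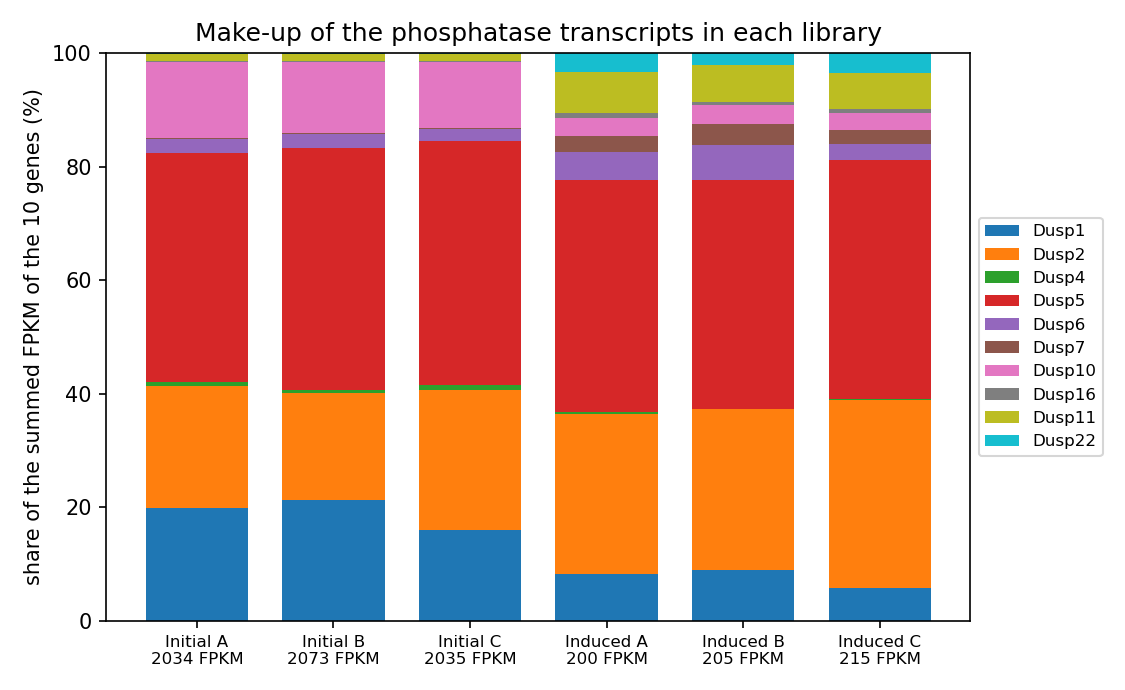
Share of each gene in the summed FPKM of the 10 genes, in percent, for each library, with the sum in FPKM under each bar. Dusp5 takes about the same share in all 6 libraries, while the share of Dusp10 and Dusp1 is smaller and that of Dusp2 and Dusp11 larger in Induced libraries.

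In Initial libraries the order of the mean levels was Dusp5, Dusp2, Dusp1, Dusp10, Dusp6, Dusp11, Dusp4, Dusp22, Dusp16 and Dusp7, and of these neighbours only Dusp2 and Dusp1 overlapped. In Induced libraries the order was Dusp5, Dusp2, Dusp1, Dusp11, Dusp6, Dusp10, Dusp7, Dusp22, Dusp16 and Dusp4. There Dusp1 overlapped Dusp11, Dusp6 overlapped Dusp10, Dusp10 overlapped Dusp7 and Dusp7 overlapped Dusp22, so the middle of the order was not resolved. Dusp22 lay above Dusp16, and Dusp16 above Dusp4, in every Induced library.

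Genes of other cell types and immediate early genes moved with the groups in the same direction as the phosphatases that fell. All 15 macrophage and monocyte markers fell, with a summed level of 736 to 1401 FPKM in Initial and 8.52 to 12.0 FPKM in Induced libraries. The red cell markers all fell too (8 of 8 tested, 1224 to 1748 and 1.28 to 1.79 FPKM), as did 11 of 12 tested B cell markers (483 to 553 and 99.8 to 164 FPKM) and 3 of 4 tested NK cell markers (107 to 120 and 19.1 to 77.5 FPKM). Of 6 dendritic cell markers tested 4 fell and 1 rose (17.3 to 22.6 and 3.31 to 8.44 FPKM), and none of the 10 neutrophil markers passed the filter (1.199 to 19.6 and 1.08 to 5.13 FPKM). The red cell marker Alas2 and the NK cell marker Klra9 were listed in none of the 3 Induced libraries and were taken as 0. In Initial libraries they stood at 12.8 to 19.5 and 2.29 to 2.86 FPKM. The macrophage receptor gene Csf1r stood at 37.3 to 72.2 FPKM in Initial libraries and at 0.0363 to 0.107 FPKM in Induced libraries. The part of other cells in the levels of the phosphatase genes, with Dusp5 at 819 FPKM or more in Initial libraries, was not tested.

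Of 20 tested immediate early targets of MAP kinases, 18 fell and none rose, with a median log2 fold change of -3.45, and 17 fell and 2 rose after scaling to the T cell identity genes. The nuclear receptor gene Nr4a1 had 756, 1106 and 743 FPKM in Initial and 3.71, 4.24 and 3.00 FPKM in the same order in Induced libraries (log2 fold change -7.53, SE 0.17, adjusted p = 6.7e-08). Fos, a subunit of the AP-1 transcription factor, had 297, 366 and 261 FPKM before and 0.780, 1.06 and 0.647 FPKM after culture (log2 fold change -7.39, SE 0.14, adjusted p = 3.5e-08). With 5 added in place of 1 FPKM the log2 fold changes were -6.63 for Nr4a1 and -5.73 for Fos. Both genes fell further than any of the 10 phosphatase genes. The part of culture and of cell handling in these levels cannot be told apart.

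Other inhibitors of the pathway mostly fell. Of 14 tested genes of that list 11 fell and 2 rose, with a median log2 fold change of -0.78. Spry2, a feedback inhibitor between receptors and Ras, had 33.2, 35.0 and 32.5 FPKM in Initial and 0.714, 0.519 and 1.63 FPKM in the same order in Induced libraries (log2 fold change -4.19, SE 0.19, adjusted p = 9.8e-07). The log2 fold change of Spry2 was -5.14 with 0.1 and -2.70 with 5 added, and -3.46 after scaling to the T cell identity genes. Its relative Spry1 went from 8.84 ± 1.98 to 1.88 ± 0.729 FPKM (adjusted p = 0.00023). The opposite held for Ptpn7, a tyrosine phosphatase of blood cells that acts on ERK and p38. It had 47.8, 56.9 and 56.8 FPKM in Initial and 162, 178 and 132 FPKM in Induced libraries (log2 fold change 1.52, SE 0.12, adjusted p = 1.7e-05), more than Dusp5 in each Induced library. Pebp1, which binds Raf kinases, went from 95.1 ± 5.09 to 115 ± 3.07 FPKM (adjusted p = 0.006). After scaling to the T cell identity genes, 4 genes of this list fell and 4 rose. Of all 11265 genes tested, 33.1% fell and 37.3% rose as deposited, and 1266 fell and 8528 rose with that scaling.

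The other dual specificity phosphatase genes went both ways. Of 22 genes in that list 20 were listed and 13 tested, of which 5 fell, 5 rose and 3 did not pass, with a median log2 fold change of 0.02. After scaling to the T cell identity genes 2 fell and 7 rose. Of all 11265 genes tested, 33.1% fell and 37.3% rose as deposited, and 1266 fell and 8528 rose with that scaling. Dusp8, a JNK and p38 phosphatase like Dusp10 and Dusp16, had 6.15, 4.38 and 3.92 FPKM in Initial libraries A, B and C and 0.0146 and 0.0516 FPKM in Induced libraries A and B, and it was listed in no Induced table for mouse C (log2 fold change -2.49, SE 0.15, adjusted p = 3.5e-06). Dusp8 passed the filter only through the Initial libraries, and its log2 fold change was -5.33 with 0.1 and -0.96 with 5 added in place of 1 FPKM. The slingshot phosphatase gene Ssh2, whose product acts on the actin regulator cofilin, fell from 58.2 ± 10.8 to 7.41 ± 0.644 FPKM (adjusted p = 9.8e-07). Dusp14 rose from 1.27 ± 0.565 to 3.55 ± 0.475 FPKM (adjusted p = 0.0018), and Dusp19 from 3.87 ± 0.414 to 8.29 ± 0.163 FPKM (adjusted p = 5.9e-05). Dusp19 shares 131 exon bases with Nup35 on the same strand, so the split of reads between them is uncertain.

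The genes of the kinases that these phosphatases act on went both ways. Of 9 tested MAP kinase genes 3 rose and 4 fell, with a median log2 fold change of 0.03, and their summed level was 197 to 204 FPKM in Initial and 202 to 216 FPKM in Induced libraries. After scaling to the CD3 chains and Trdc 5 of them rose and 3 fell, and after scaling to the T cell identity genes 6 rose and 2 fell. Over all 11265 genes tested, 37.3% rose and 33.1% fell as deposited. With the CD3 chains and Trdc 5384 rose and 2676 fell, and with the T cell identity genes 8528 rose and 1266 fell. Mapk3, which encodes ERK1, had 6.08, 5.46 and 6.25 FPKM in Initial and 16.2, 15.5 and 18.7 FPKM in the same order in Induced libraries (log2 fold change 1.36, SE 0.10, adjusted p = 7.7e-06). The JNK gene Mapk9 rose from 19.5 ± 1.62 to 29.1 ± 1.35 FPKM (adjusted p = 0.0004). The p38 genes Mapk11 (7.90 ± 0.735 to 2.56 ± 0.996 FPKM, adjusted p = 0.00033) and Mapk12 (2.08 ± 0.723 to 0.174 ± 0.033 FPKM, adjusted p = 0.00021) fell. Mapk12 passed the filter only through the Initial libraries. Its log2 fold change was -1.365 as tested, -2.94 with 0.1 and -0.45 with 5 added in place of 1 FPKM.

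Of 7 MAP kinase kinase genes 2 rose and 2 fell as deposited, 4 rose and 1 fell after scaling to the CD3 chains and Trdc, and 6 rose and 1 fell after scaling to the T cell identity genes. As deposited, 37.3% of all genes tested rose and 33.1% fell. Of all 11265, 5384 rose and 2676 fell with the first scaling, and 8528 rose and 1266 fell with the second. Map2k6, an activator of p38, fell from 11.6 ± 1.23 to 3.79 ± 0.179 FPKM (log2 fold change -1.39, SE 0.10, adjusted p = 7.9e-06). Map2k3, another activator of p38, rose from 37.6 ± 2.70 to 50.7 ± 3.36 FPKM (adjusted p = 0.0018). Map2k1, an activator of ERK, had 74.7 ± 3.09 and 87.0 ± 3.66 FPKM (adjusted p = 0.0158, and 0.062 after quantile normalization, 0.0507 without Initial library A and 0.0668 without Induced library B). Map2k7, an activator of JNK, had 12.2 ± 0.312 and 10.6 ± 0.515 FPKM (adjusted p = 0.0432). That call was lost with the mouse as a replicate block (adjusted p = 0.0811), with no filter and without any of the 6 libraries, and the direction turned with both scalings to T cell genes.

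Of 17 tested MAP3 and MAP4 kinase genes 1 rose and 8 fell, where 37.3% of all genes tested rose and 33.1% fell. Map3k1 fell from 34.0 ± 2.69 to 12.9 ± 0.932 FPKM (adjusted p = 4.5e-06) and Map4k4 from 7.71 ± 1.27 to 2.62 ± 0.664 FPKM (adjusted p = 0.00021). Map3k12, which rose from 1.34 ± 0.208 to 2.88 ± 0.259 FPKM (adjusted p = 0.00072), shares 1573 exon bases with the more abundant Pcbp2 on the other strand, so its level is uncertain. After scaling to the CD3 chains and Trdc 6 genes of this list rose, and with the T cell identity genes 11 rose and 2 fell. Of all 11265 genes tested, 5384 rose with the former, and 8528 rose and 1266 fell with the latter.

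Of 11 tested genes of Ras and its exchange factors 5 rose and 6 fell, and 6 rose and 3 fell after scaling to the T cell identity genes. Among all 11265 genes tested 37.3% rose and 33.1% fell, and 8528 rose and 1266 fell after that scaling. Rasgrp1, the exchange factor that couples the T cell receptor to Ras, had 49.9985, 63.0 and 53.5 FPKM in Initial and 158, 161 and 135 FPKM in the same order in Induced libraries (log2 fold change 1.43, SE 0.11, adjusted p = 9.1e-06). Its relative Rasgrp2, which acts on Rap1, had 102, 85.1 and 97.5 FPKM before and 10.2, 7.13 and 25.6 FPKM after culture (log2 fold change -2.83, SE 0.42, adjusted p = 0.0012). Hras rose from 13.0 ± 0.232 to 28.5 ± 1.16 FPKM (adjusted p = 3.6e-06) and Sos2 fell from 5.08 ± 0.347 to 1.11 ± 0.375 FPKM (adjusted p = 3.4e-05). The log2 fold change of Sos2 was -1.54 as tested, -2.14 with 0.1 and -0.72 with 5 added.

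Of 8 tested kinases activated by MAP kinases 4 rose and 2 fell, and 6 rose and none fell after scaling to the T cell identity genes. Among all 11265 genes tested 37.3% rose and 33.1% fell, and 8528 rose and 1266 fell after that scaling. Mapkapk3, a kinase downstream of p38, had 29.7, 28.6 and 33.2 FPKM in Initial and 84.1, 85.9 and 79.0 FPKM in the same order in Induced libraries (log2 fold change 1.42, SE 0.08, adjusted p = 1.7e-06). Mapkapk2, a near relative, rose from 5.24 ± 1.28 to 9.89 ± 1.34 FPKM (adjusted p = 0.0023). Mknk1 (28.3 ± 1.45 to 17.2 ± 0.295 FPKM, adjusted p = 4.7e-05) and Mknk2 (88.8 ± 8.37 to 54.8 ± 4.65 FPKM, adjusted p = 0.00026), kinases of the translation factor eIF4E, fell. Their direction turned after scaling to the T cell identity genes (Mknk1 0.28, adjusted p = 0.0968; Mknk2 0.31, adjusted p = 0.064).

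**Figure D5:**
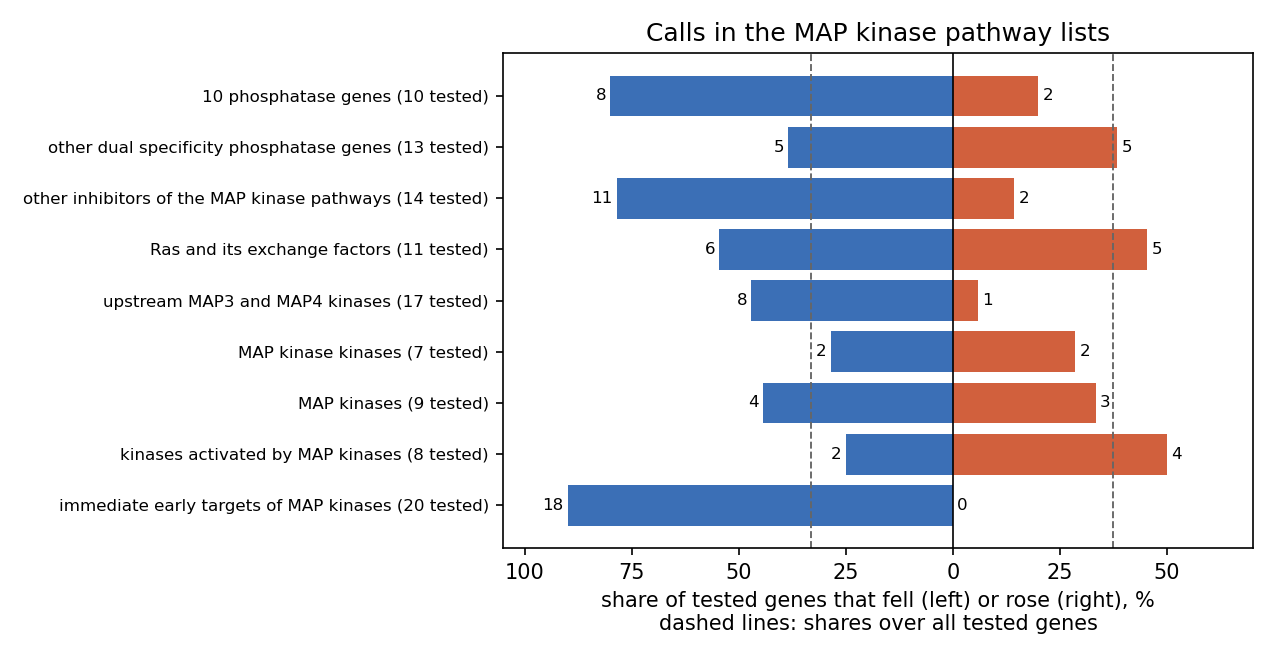
Share of tested genes that fell (left, blue) or rose (right, orange) in each list, in percent, with the number of genes at each bar and the shares over all tested genes, 33.1% and 37.3%, as dashed lines. The 10 phosphatase genes, the other inhibitors and the immediate early targets have the longest bars to the left. The lists were chosen with earlier results of these data known.

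The promoters of 9 of the 10 genes, all but Dusp4, were found in the RefSeq table (GRCm38.p6, 250 bases before to 50 after the start). Motifs were searched on both strands. The cAMP response element TGACGTCA was found in the promoter of Dusp1 and in 1.79% of the 32851 promoters of the table. The serum response element, known as the CArG box, was found at 2 places in that of Dusp5 and in 1.63% of all promoters. The AP-1 element TGANTCA (7.81% of all promoters), the TATA box letters TATAAA (13.6%) and the ETS element CCGGAA (14.9%) were in none of the 9 windows, which says only that these letters are not there. The windows of Dusp1 and Dusp5 are shown because these genes were among the most abundant of those that fell and each holds an element of immediate early promoters, in capitals.
Dusp1, chr17:26508423-26508722, minus strand: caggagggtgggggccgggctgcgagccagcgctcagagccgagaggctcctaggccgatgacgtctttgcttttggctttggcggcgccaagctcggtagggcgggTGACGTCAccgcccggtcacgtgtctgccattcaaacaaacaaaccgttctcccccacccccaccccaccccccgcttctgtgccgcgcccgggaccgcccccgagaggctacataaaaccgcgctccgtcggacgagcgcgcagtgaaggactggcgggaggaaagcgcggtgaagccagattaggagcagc
Dusp5, chr19:53528895-53529194, plus strand: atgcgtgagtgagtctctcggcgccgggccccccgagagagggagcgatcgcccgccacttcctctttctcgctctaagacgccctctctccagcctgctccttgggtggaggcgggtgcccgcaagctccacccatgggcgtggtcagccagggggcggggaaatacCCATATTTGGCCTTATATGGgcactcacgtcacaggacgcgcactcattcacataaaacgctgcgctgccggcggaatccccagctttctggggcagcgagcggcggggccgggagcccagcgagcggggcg
The element of Dusp1 begins 143 bases before the start, and those of Dusp5 begin 82 and 72 bases before it and adjoin each other without overlap.

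AU-rich letters in the 3′ untranslated region are known from short-lived messenger RNAs. The pentamer ATTTA occurred in the principal transcript of 9 of the 10 genes, all but Dusp7, and in 67.9% of the 10167 tested genes with such a region of at least 50 bases. The longer form TTATTTATT, which contains the pentamer, occurred in Dusp1 and Dusp11, against 7.2% of tested genes. Dusp1 had 4 pentamers in 690 bases, Dusp2 had 4 in 581 bases, Dusp10 had 3 in 1113 bases, and Dusp11, which fell much less, had 18 in 5337 bases. Of the others that fell, Dusp4 had 2 in 1111 bases, Dusp5 had 1 in 1109, Dusp6 had 1 in 1189 and Dusp16 had 3 in 2411. Over the 10167 tested genes the median was 1 pentamer and the median length 1003 bases.

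Few annotated genes share exons with the 10. An antisense transcript shares 547 exon bases with Dusp5 and is listed in no library. Ergic1 on the other strand shares 11 exon bases with a long form of Dusp1 and stood at 7.498 to 8.43 FPKM in Initial and 16.6 to 18.4 FPKM in Induced libraries. Gm19265 on the other strand shares 45 exon bases with Dusp11 and stood at 0.290 FPKM or less. The spans that the files give were compared with the principal transcript of each member, not with all its forms. The span for Dusp11, chromosome 6 from 85942268 to 86001926, is wider than that transcript. The span for Dusp10 starts at 184013302 on chromosome 1, before the transcript's start at 184034381. The spans given for Dusp16 and Dusp22 start at 134715468 and 30659999, just before their principal transcripts, and those of the other members match theirs.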

How the data were processed

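FPKM values of messenger RNA were available for 3 Initial and 3 Induced libraries. Per the labels' protocols, the authors made mRNA-seq libraries (VAHTS v2 kit) and computed FPKM with Cuffdiff. The submitters' processing notes name CASAVA, HISAT2 2.0.5, Cuffdiff 1.3.0 and 2.2.1, and the build mm9. The positions in the files are those of GRCm38: of 26669 identifiers found in GENCODE M21, 91.1% lie inside the span in the file. How strand was handled is not stated there.

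No deposited FPKM is 0, so a gene missing from a table was taken as 0. The test was limma 3.58.1 (R 4.3.3; trend, robust, two-sided, no block, Benjamini-Hochberg) on log2(FPKM + 1), for genes that reached an FPKM of 1 in 3 or more libraries. On simulated data with 50 genes changed at each of 1.5, 2, 4 and 8-fold, it recovered 64, 90, 96 and 98% of them. Of its 182 calls 8 were false. Far fewer genes changed there than were called in the real data, so these rates may not hold here. Intervals cover 95%.

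The mouse letters pair the libraries by animal, per the sample titles. Correlations of deviations from the group means were 0.0393, 0.0307 and 0.1308 for mice A, B and C and -0.1324 to 0.0988 between different mice.

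Between 47.9 and 52.1% of low FPKM values of genes with 1 transcript lay within 0.15 of a whole number of fragments, where even spacing gives 30%, so depths are rough.

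The genes and lists were chosen with earlier results of these data known. Named from each pathway list are up to 2 genes that rose most and 2 that fell most. Markers of other cells are given as counts and sums, and Csf1r, Alas2 and Klra9 are also named as examples, picked by no set rule. Alternatives were 2 other pseudocounts (0.1 and 5), no filter, a filter at FPKM 5, TMM-like factors (trims of 0.3 and 0.05), a common sum, quantile normalization, scaling to T cell genes, removal of genes of other cell types, a block for the mouse, limma without trend or robust shrinkage, and removal of each library in turn with the tested genes kept. Python 3.11.15, numpy 2.4.6, pandas 2.3.3 and matplotlib 3.10.9 made the tables and figures.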

Additional observations from a re-analysis of the deposited data

How the results depend on the processing

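Of 178 values of the 10 genes under the 18 alternatives, 170 kept their direction and their side of the threshold. The 7 that were no longer past the threshold are 6 of Dusp22 and 1 of Dusp16, and the 1 that turned is that of Dusp11, with a log2 fold change of 0.14 after scaling to the T cell identity genes. The count of phosphatase genes that fell was 6 with that scaling, 7 with the filter at FPKM 5 and 8 under the other alternatives. The count that rose was 1 in place of 2 with no filter (Dusp22 lost) and with the filter at FPKM 5 (Dusp22 and Dusp16 not tested), and 1 to 2 when a library was left out. With the mouse as a replicate block 8 fell and 2 rose, and no call of the 10 changed. Over all genes, 4199 rose and 3732 fell; leaving out a library gave 3803 to 4098 and 3300 to 3858. With the T cell identity scaling 8528 rose and 1266 fell. Of the counts for the pathway lists under the alternatives, 251 stayed within 1.5 times of the count as deposited and 37 did not. Depth limits Dusp4 in Induced cells most, at 17 to 34 fragments per library.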
